A study of Mus musculus with 12 samples.

Results

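The mitosis and G2/M genes are 45 genes of cell division, chosen by name from cyclins, spindle checkpoint, chromosomal passengers, kinesins, chromosome structure and cytokinesis. A probe set was found for 43 of them, out of 12393 genes measured on the array, and each gene was represented by its probe set with the highest mean log2 signal over the 12 arrays. Ccnb1 and Espl1 were not analysed here. The study asked which genes change early in primitive bone marrow cells that express leukemia-linked fusions of the nucleoporin NUP98 with a HOX homeodomain. RNA was hybridised to Affymetrix MOE430A arrays, 3 arrays for each of 4 groups. Sca-1+ Lin- GFP+ cells of the first group carried ND13, the fusion NUP98-HOXD13, and those of the second carried NA10, the fusion NUP98-HOXA10. The third group carried ND13(N51S), in which the homeodomain is mutated so that it no longer binds DNA, and the fourth was the GFP control, with the empty MIG vector. In all groups the marrow came from adult (C57Bl/6Ly-Pep3b×C3H/HeJ) F1 mice that had received fluorouracil at 150 mg/kg 4 days earlier. The cells were grown for 48 hours with IL-6, IL-3 and stem cell factor, cultured for 2 days on irradiated GP+E86 producer cells of an MSCV retrovirus that also encodes GFP, and sorted 24 hours later. By the study's methods the replicates are biological and came from independent experiments. Whether arrays of the same replicate number shared marrow, a culture or a day is not given in the sources used here.

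As background, entry into mitosis depends on Cdk1 bound to cyclin A or B. Wee1-type kinases hold this kinase inactive until Cdc25 phosphatases remove the inhibitory phosphates, and Plk1 and Aurora kinases drive spindle assembly. The spindle checkpoint then blocks the anaphase-promoting complex (APC/C) with its activator Cdc20 until every kinetochore is attached. Many of these genes are transcribed in a wave in late S phase and G2, when B-Myb and FoxM1 join the MuvB core that earlier formed part of the repressive DREAM complex, at a promoter element called the cell cycle genes homology region (CHR). Fluorouracil kills cycling marrow cells, and the surviving progenitors enter the cycle under the cytokines of such a culture.

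The promoters show what these genes share in sequence. Promoter windows from RefSeq (build GRCm38.p6, 250 bases before to 50 after the annotated start) were found for 34 of the 45 genes, 37 windows in all. The letters TTTGAA or TTCGAA, the CHR motif, stood on either strand in 30 of the 37 windows (81.1%), against 19.2% of all 32851 windows. The letters CCAAT, bound by NF-Y and often found upstream of a CHR, likewise stood in 30 of the 37 windows, against 37.4% of all windows. Both motifs occurred together in 28 windows (75.7%), against 7.52% of all windows, and in no window of these genes did a match of one overlap a match of the other. A list of other mitotic genes, 43 of them with 48 windows, lay between these values, with a CHR motif in 54.2%, CCAAT in 60.4% and both in 35.4%. No CHR motif was present in the windows of Mad2l1, Pttg1, Nek2, Birc5, Cenpe, Ncaph and Nusap1. The matches also shared a position. A CHR motif began between 25 bases before and 50 bases after the start in 23 of 37 windows (62.2%), against 3.86% of all windows, and a CCAAT began within the 100 bases before the start in 26 of 37 windows (70.3%), against 19.3%. These shares are a description of letters in a window, with no measurement of binding.

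**Figure D1:**
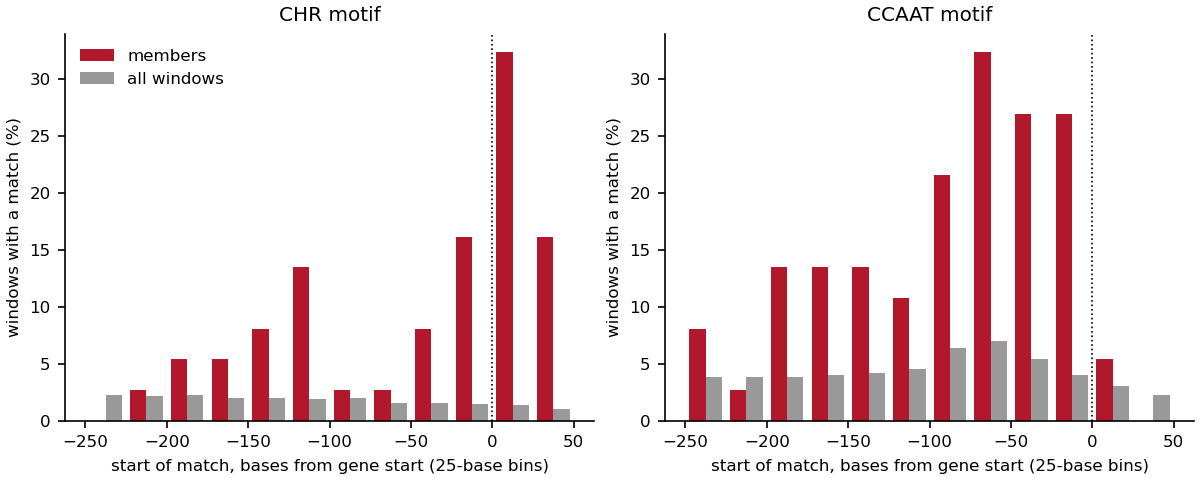
Share of promoter windows with a match to the CHR motif (left) or to CCAAT (right) by the position where the match begins, in 25-base bins from the annotated gene start (dotted line), for the 37 windows of the mitosis and G2/M genes (red) and all 32851 windows (grey). The CHR motif is most frequent in the first 25 bases from the start, in 32.4% of the genes' windows against 1.43% of all, and CCAAT at 75 to 50 bases before it, in 32.4% against 6.99%.

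The windows of 6 genes are shown because their signal gave the smallest p-values in the tests reported here, over the replicate number in every case, among the genes with a CHR motif in a window. Capitals mark each CHR motif, which reads TTCAAA where it lies on the other strand, and each window runs 5′ to 3′ along the gene.
Hmmr (chr11:40733388-40733687, minus strand): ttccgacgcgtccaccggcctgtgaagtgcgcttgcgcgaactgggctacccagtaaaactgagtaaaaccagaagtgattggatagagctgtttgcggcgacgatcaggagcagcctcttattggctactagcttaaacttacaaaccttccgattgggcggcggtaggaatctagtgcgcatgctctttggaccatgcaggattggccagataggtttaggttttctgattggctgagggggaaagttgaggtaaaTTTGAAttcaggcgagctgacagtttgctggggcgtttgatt
Kif22 (chr7:127042371-127042670, minus strand): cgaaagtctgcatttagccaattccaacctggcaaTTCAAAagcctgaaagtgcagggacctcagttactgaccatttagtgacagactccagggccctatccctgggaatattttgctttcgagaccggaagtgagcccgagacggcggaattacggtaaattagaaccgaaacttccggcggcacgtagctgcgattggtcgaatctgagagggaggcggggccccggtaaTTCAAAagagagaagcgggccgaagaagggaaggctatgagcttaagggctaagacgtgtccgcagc
Cdc20 (chr4:118437294-118437593, minus strand): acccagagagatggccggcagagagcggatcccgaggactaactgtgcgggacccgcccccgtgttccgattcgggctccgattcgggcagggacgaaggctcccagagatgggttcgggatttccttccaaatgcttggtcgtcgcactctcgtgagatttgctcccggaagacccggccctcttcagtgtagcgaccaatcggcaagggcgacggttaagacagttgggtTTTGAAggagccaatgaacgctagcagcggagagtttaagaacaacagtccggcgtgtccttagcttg
Prc1 (chr7:80294201-80294500, plus strand): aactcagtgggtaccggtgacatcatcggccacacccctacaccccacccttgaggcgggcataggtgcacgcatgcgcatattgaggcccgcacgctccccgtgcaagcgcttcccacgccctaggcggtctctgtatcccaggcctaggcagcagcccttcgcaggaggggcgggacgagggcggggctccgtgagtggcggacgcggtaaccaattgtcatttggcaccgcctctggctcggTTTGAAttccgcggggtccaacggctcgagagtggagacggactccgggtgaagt
Kif11 (chr19:37376132-37376431, plus strand): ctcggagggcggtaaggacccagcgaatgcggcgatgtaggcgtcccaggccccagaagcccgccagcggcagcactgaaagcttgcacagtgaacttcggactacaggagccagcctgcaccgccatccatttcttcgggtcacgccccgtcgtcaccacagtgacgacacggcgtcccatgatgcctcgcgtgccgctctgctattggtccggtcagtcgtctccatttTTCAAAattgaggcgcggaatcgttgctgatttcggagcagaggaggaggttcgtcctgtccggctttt
Cdk1 (chr10:69352863-69353162, minus strand): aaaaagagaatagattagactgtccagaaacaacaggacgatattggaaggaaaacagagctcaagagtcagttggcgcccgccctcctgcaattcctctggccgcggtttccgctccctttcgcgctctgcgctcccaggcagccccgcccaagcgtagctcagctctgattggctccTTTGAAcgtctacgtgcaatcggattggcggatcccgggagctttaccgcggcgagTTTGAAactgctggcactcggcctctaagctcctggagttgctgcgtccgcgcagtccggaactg
In 5 of these windows the match nearest the start begins 5 to 19 bases before it, and in Hmmr it begins at base 9 after it. A CCAAT on either strand lies upstream of that match in all 6, beginning 45 bases before the start in Kif11, at 53 in Cdc20 and at 54 in Kif22. Hmmr holds 5 CCAAT matches and Cdk1 holds 3.

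All 43 measured genes lay above the background in all 12 arrays, where the background of an array is taken at percentile 95 of 27 probe sets for bacterial transcripts and was 28.5 to 69.8. Their median signal was 1488.2 to 1855.9 by array. Replicates of one group correlated at 0.890 to 0.939 over log2 signals. Markers of stem and progenitor cells were above background in all arrays for 5 of 5 genes measured, and 0 of 5 T lineage markers were. Ly6a, the gene of Sca-1, was not analysed here. Of the T lineage markers, Cd8a was above background in 10 arrays and Cd5 in 8. Granulocyte markers were above it in all arrays for 4 of 5 genes measured. One array stood apart. In ND13(N51S) replicate 2 the Gapdh signal at the 3′ end was 48.9 times that at the 5′ end, against 1.90 to 2.71 in the other 11 arrays. For GFP control replicate 1, an experiment record deposited beside the array describes cells that do not match the label, under which the array was used here.

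No member passed the test in any comparison, with limma's adjusted p under 0.05 and a change of at least 1.5-fold. Among all 22626 probe sets, that call was made for 0.0884% in ND13 against the GFP control, 0.0133% in NA10 and 0% in ND13(N51S) against the same control, 0.0133% and 0.00884% in ND13 and NA10 against ND13(N51S), and 0.0177% in ND13 against NA10, and at such shares a count of 0 among 43 genes is no result about the members. At an unadjusted p under 0.05 and 1.5-fold, in the same limma fit, 1 gene was higher with ND13 (background 3.43%, and 1.5% for lower) and 1 with NA10 (2.51%, and 1.52% for lower), and 1 was higher and 1 lower with ND13(N51S) (4.37% and 2.48%), each against the GFP control. The count was 0 for ND13 against ND13(N51S), with background shares of 3.2% higher and 3.78% lower, and 1 higher and 0 lower for NA10 against ND13(N51S) (2.94% and 4.85%). For ND13 against NA10 it was 0 (background 1.98% and 1.34%). All 3 fusions were compared with the same 3 GFP control arrays.

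**Figure D2:**
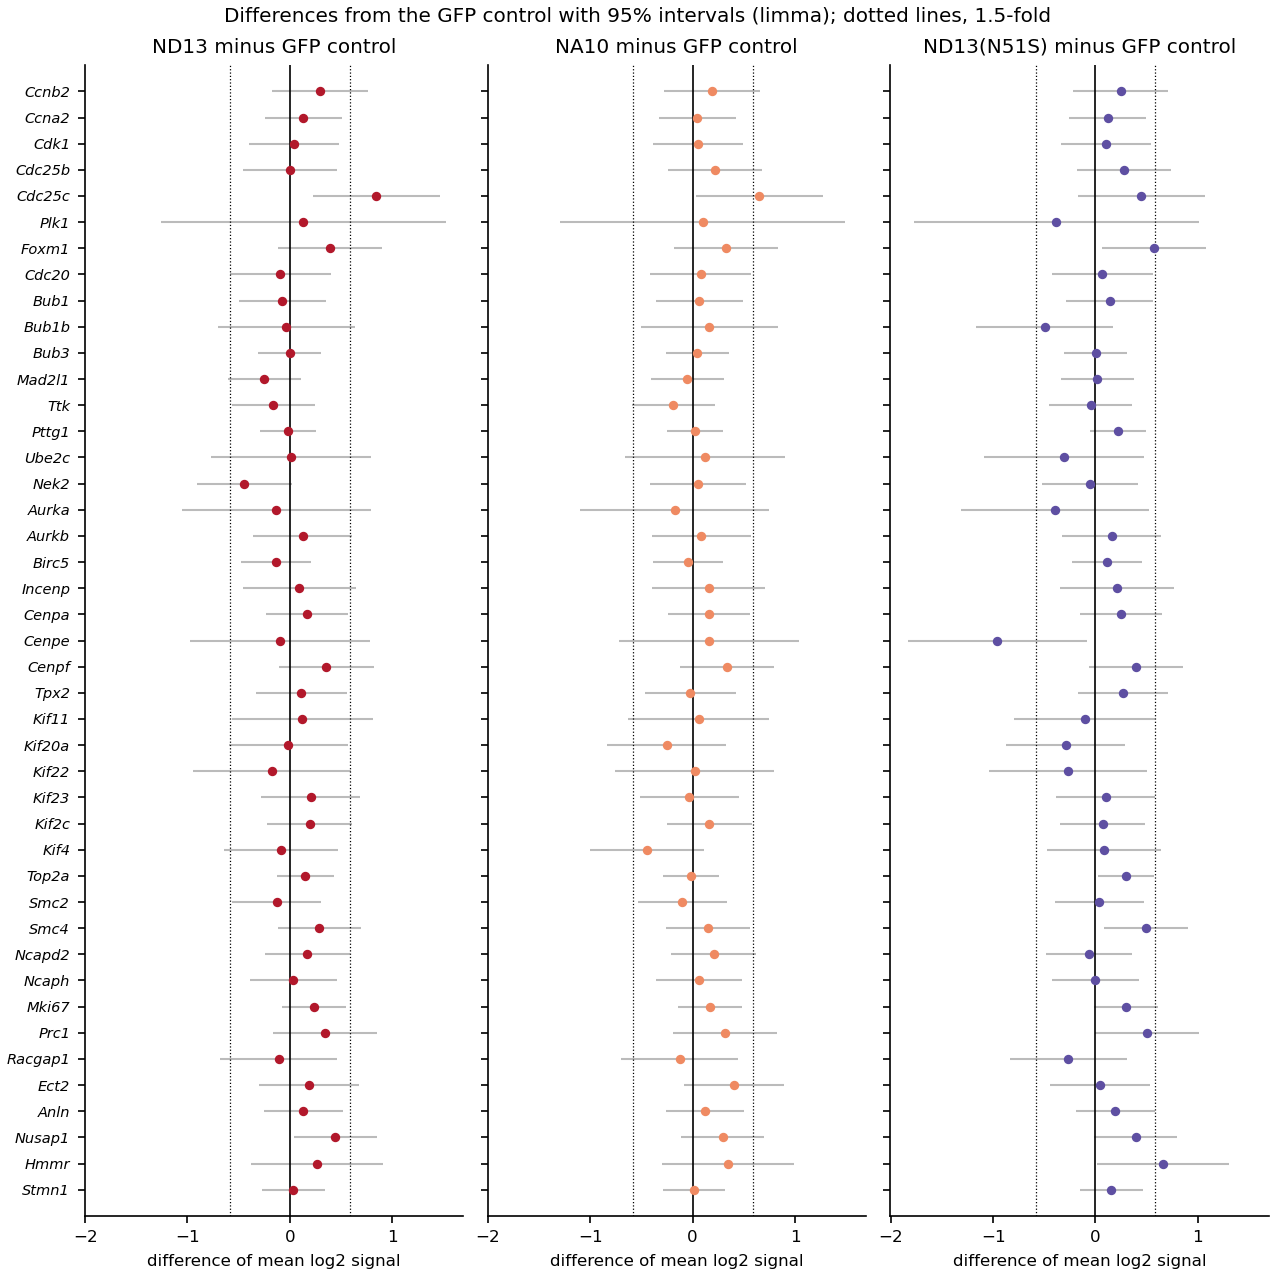
Difference of mean log2 signal from the GFP control (points) with limma's 95% interval (bars) for the 43 genes, for ND13, NA10 and ND13(N51S); dotted lines mark a 1.5-fold change. Most points lie within 0.5 of 0, Cdc25c lies at 0.85 with ND13 and 0.65 with NA10, and Cenpe lies at -0.96 with ND13(N51S).

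The intervals show how far a change is bounded. The 95% interval of the difference, not adjusted for the number of genes, lay wholly within 1.5-fold either way for 16 of 43 genes in ND13 against the GFP control (37.2%), 21 in NA10 and 19 in ND13(N51S). The share among all probe sets was 9.12%, 10.6% and 8.72%, and among probe sets above the median mean signal 18.2%, 21.2% and 17.4%. Bub3, which binds kinetochores for the checkpoint, was among the tightest, at 0.00 with an interval of -0.31 to 0.31 for ND13 against the GFP control. Plk1 was the least bounded, at 0.13 with -1.26 to 1.52, and the array with the high Gapdh ratio holds its lowest signal. That array, ND13(N51S) replicate 2, is in neither group compared, but the fit shares 1 spread over all 4 groups. Plk1 signals were 1037 to 1505 in ND13 arrays and 970 to 1300 in GFP control arrays, against 188 in that array. In these bulk samples, fewer cells in mitosis and less RNA per cell cannot be told apart.

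By value, the group as a whole lay slightly above the GFP control. The median difference was 0.09 log2 units in ND13 cells, 0.08 in NA10 cells and 0.10 in ND13(N51S) cells, beside medians over all probe sets of 0.00, -0.01 and 0.07. The per-array member median varied within groups with a pooled SD of 0.04. Of the 43 genes, 28 were higher by value in ND13 cells, 32 in NA10 cells and 31 in ND13(N51S) cells. When arrays were centred on their own median, the median difference with ND13(N51S) was -0.0078 and that with ND13 was 0.020. Against ND13(N51S) the median difference was -0.06 for ND13 and -0.06 for NA10, beside -0.06 and -0.08 over all probe sets.

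**Figure D3:**
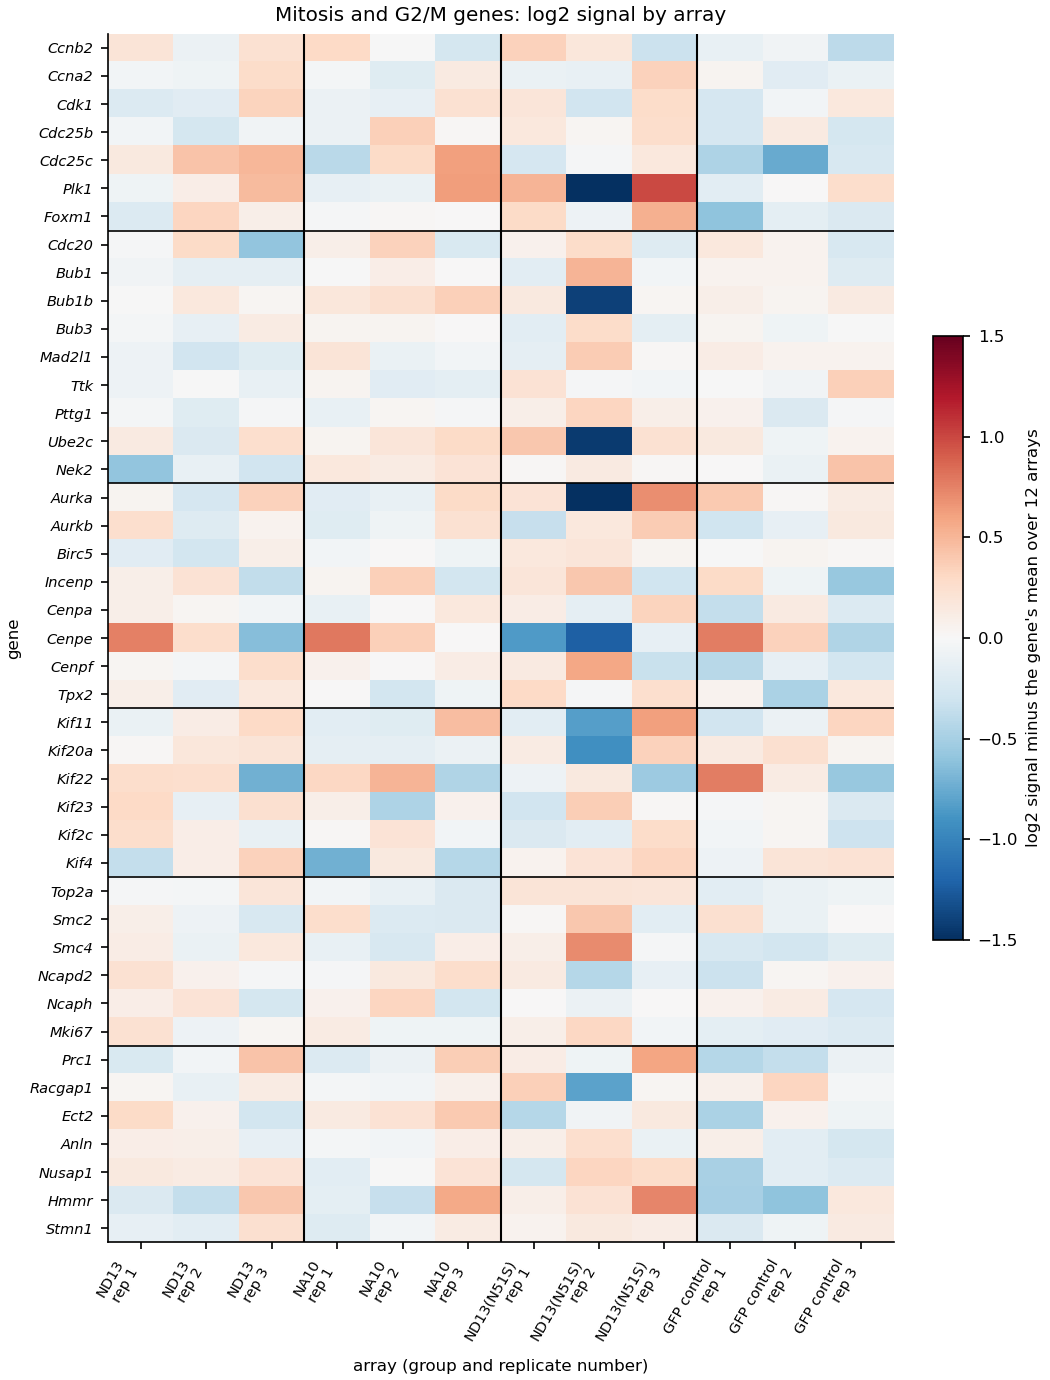
Log2 signal of the 43 genes minus each gene's mean over the 12 arrays, by array; colours end at 1.5 either way, and horizontal lines separate the 6 functional groups. ND13(N51S) replicate 2 holds the darkest blue cells, at Plk1 (signal 188), Aurka (398), Ube2c (675) and Bub1b (635), and the replicate 3 arrays share red at Hmmr and blue at Kif22.

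Among cyclins, Cdk1 and its regulators, all 7 genes measured were higher by value with ND13 and with NA10 than in the GFP control, with medians of 0.13 and 0.19, and 6 of 7 with ND13(N51S), with a median of 0.25. None passed the adjusted test. The shared direction depends on the probe sets used, because a second Ccna2 probe set, above background in all arrays, gave -0.25 with ND13 and -0.13 with NA10. Cdc25c, one of the phosphatases that activate Cdk1, had the largest difference of any member with ND13. Its signal was 210, 254 and 268 in ND13 cells, 143, 231 and 290 in NA10 cells, 159, 187 and 212 in ND13(N51S) cells, and 137, 112 and 160 in GFP control cells. The 3 ND13 arrays lay above all 3 control arrays, while the lowest NA10 array and the lowest ND13(N51S) array lay below the highest control array. Only 1 probe set measured the gene.
The log2 difference from the GFP control was 0.85 ± 0.29 with ND13 (limma's SE, 95% interval 0.22 to 1.47, adjusted p = 0.648) and 0.65 ± 0.29 with NA10 (0.03 to 1.28, adjusted p = 0.9999). With ND13(N51S) it was 0.45 ± 0.29 (adjusted p = 0.726). ND13 and ND13(N51S) differed by 0.40, with a 95% interval of -0.23 to 1.02, so the data do not separate the fusion from its homeodomain mutant at this gene. Without GFP control replicate 1 and ND13(N51S) replicate 2, the difference with ND13 was 0.86 (limma's adjusted p = 0.677). Without NA10 replicate 3, the difference with NA10 was 0.43, which is under 1.5-fold.

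Foxm1 encodes the transcription factor that drives many G2/M genes. Its signal was 274, 395 and 335 in ND13 cells, 312, 320 and 317 in NA10 cells, 386, 300 and 457 in ND13(N51S) cells, and 208, 285 and 272 in GFP control cells. All NA10 and all ND13(N51S) arrays lay above the 3 control arrays, and 1 ND13 array lay below the highest of them. The difference from the GFP control was 0.57 ± 0.24 with ND13(N51S) (95% interval 0.06 to 1.08, limma's adjusted p = 0.632), 0.39 with ND13 and 0.32 with NA10. Of the other 3 Foxm1 probe sets, one was above background in all arrays but GFP control replicate 1, where it was at 18.3. It gave 188, 143 and 212 in ND13 cells, 228, 167 and 145 in NA10 cells and 257, 73.4 and 163 in ND13(N51S) cells, against 183 and 139 in the other control arrays, so that every group overlapped those 2 arrays. The others were above background in 1 and 0 arrays.
Cdk1, the mitotic kinase itself, had signals of 3253, 3351 and 4741 in ND13 cells, 3528, 3444 and 4403 in NA10 cells, 4269, 3070 and 4532 in ND13(N51S) cells, and 3147, 3645 and 4174 in GFP control cells. Ranges of all 4 groups overlapped, and the difference from the GFP control was 0.04, 0.05 and 0.10 for the 3 fusions. Ccna2 and Ccnb2, the measured A- and B-type cyclins, differed from the GFP control by 0.13 and 0.30 with ND13, each with an interval that included 0. The second Ccna2 probe set gave -0.25 there. Cdc25b, another Cdk1-activating phosphatase, differed by 0.01 in ND13 cells, 0.22 in NA10 cells and 0.28 in ND13(N51S) cells. Plk1, which phosphorylates Cdc25c and many spindle proteins, differed by -0.38 with ND13(N51S) over all arrays and by 0.71 without ND13(N51S) replicate 2, so that the direction turned on 1 array.

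The checkpoint and APC/C genes had no common direction. Of 9 measured, 7 were lower by value with ND13 than in the GFP control (median -0.07) and 7 were higher with NA10 (median 0.05). Set side by side, 8 of 9 were lower with ND13 than with NA10, with a median of -0.14 and no gene passing the adjusted test. Nek2, a kinase that splits the centrosomes at mitotic entry, was the gene with the largest difference. Its signal was 230, 319 and 283 in ND13 cells, 386, 376 and 399 in NA10 cells, 352, 381 and 351 in ND13(N51S) cells, and 348, 323 and 466 in GFP control cells. The 3 ND13 arrays were the 3 lowest of the 12 arrays. The difference was -0.49 ± 0.22 for ND13 against NA10 (95% interval -0.96 to -0.03, limma's adjusted p = 0.9998) and -0.44 ± 0.22 for ND13 against the GFP control (-0.91 to 0.02).
Bub1 and Bub1b, kinase and pseudokinase of the checkpoint, also had every ND13 array below every NA10 array, with differences of -0.14 and -0.20. For that comparison 3 members lay below without overlap and 2 above, where the background shares are 4% and 5.4%. Mad2l1, the checkpoint protein that binds Cdc20, had signals of 2798, 2419 and 2602 in ND13 cells and 3173, 3057 and 3045 in GFP control cells, which did not overlap, with a difference of -0.25 (95% interval -0.61 to 0.11). Pttg1, the securin that inhibits separase, differed by -0.02 in ND13 cells, 0.02 in NA10 cells and 0.22 in ND13(N51S) cells.

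Among the Aurora kinases, chromosomal passengers and centromere genes, the medians against the GFP control were 0.10 in ND13 cells, 0.12 in NA10 cells and 0.19 in ND13(N51S) cells. Cenpe, the kinesin that carries chromosomes to the metaphase plate, varied more between arrays of one group than most members, with an SE of 0.41 that Aurka and Plk1 exceeded, at 0.43 and 0.65. Its signal was 653, 464 and 249 in ND13 cells, 672, 494 and 389 in NA10 cells, 214, 166 and 355 in ND13(N51S) cells, and 660, 493 and 283 in GFP control cells. The lowest 2 of the 12 arrays were both ND13(N51S) arrays, and the ND13, NA10 and control arrays shared one ordering by replicate number, high in replicate 1 and low in replicate 3. The difference with ND13(N51S) was -0.96 ± 0.41 against the GFP control (95% interval -1.84 to -0.08, limma's adjusted p = 0.637), and NA10 exceeded ND13(N51S) by 1.12 ± 0.41 (0.24 to 2.00, adjusted p = 0.480). Without ND13(N51S) replicate 2 these were -0.71 and 0.88 and no longer reached an unadjusted p under 0.05, and without GFP control replicate 1 the first was -0.68 and did not either.
Cenpf, a kinetochore protein that accumulates in G2, had signals of 1745, 1669 and 2043 in ND13 cells, 1788, 1716 and 1849 in NA10 cells, 1874, 2543 and 1351 in ND13(N51S) cells, and 1278, 1564 and 1414 in GFP control cells. ND13 and NA10 arrays all lay above the control arrays, with differences of 0.36 (95% interval -0.10 to 0.82) and 0.34 (-0.13 to 0.80). A second Cenpf probe set, above background in all arrays, gave 0.31 with ND13 and -0.16 with NA10, and both groups overlapped the control there. Aurkb, Birc5 and Incenp, 3 members of the chromosomal passenger complex, differed from the GFP control by 0.13, -0.13 and 0.09 with ND13.

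The chromosome structure genes were mostly higher by value, 5 of 6 with ND13 and with ND13(N51S) and 4 of 6 with NA10. Top2a, the topoisomerase that untangles sister chromatids, had signals of 4682, 4645 and 5353 in ND13 cells, 4588, 4381 and 4082 in NA10 cells, 5412, 5406 and 5367 in ND13(N51S) cells, and 4233, 4429 and 4528 in GFP control cells. The 3 ND13(N51S) arrays were the 3 highest of the 12, and ND13 lay between them and the control without overlap on either side. The difference was 0.30 ± 0.13 for ND13(N51S) against the GFP control (limma's adjusted p = 0.637), -0.31 ± 0.13 for NA10 against ND13(N51S) (adjusted p = 0.537), and 0.15 ± 0.13 for ND13 against the GFP control.
Smc4, a condensin ATPase, had signals of 3863, 3339 and 4021 in ND13 cells, 3331, 3034 and 3849 in NA10 cells, 3830, 5867 and 3548 in ND13(N51S) cells, and 3032, 2975 and 3158 in GFP control cells. ND13 and ND13(N51S) arrays all exceeded the control arrays. The difference with ND13(N51S) was 0.49 ± 0.19 (95% interval 0.09 to 0.90, limma's adjusted p = 0.608), and 0.27 without ND13(N51S) replicate 2. The other 2 Smc4 probe sets gave -0.10 and -1.22 for that comparison, so the direction at this gene differed between probe sets.
Mki67, the gene of the Ki-67 antigen used to mark cycling cells, had signals of 5222, 4221 and 4546 in ND13 cells, 4847, 4266 and 4282 in NA10 cells, 4737, 5546 and 4351 in ND13(N51S) cells, and 4024, 3956 and 3883 in GFP control cells. The control arrays were the 3 lowest of the 12. The differences were 0.23 in ND13 cells, 0.17 in NA10 cells and 0.30 in ND13(N51S) cells, each with a 95% interval that included 0.

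Spindle and cytokinesis genes had the highest median of any functional group with NA10, 0.29, beside 0.18 with ND13 and 0.19 with ND13(N51S), all against the GFP control, and 6 of 7 were higher by value with each fusion. Nusap1, a microtubule-binding protein of the spindle, had signals of 2643, 2605 and 2767 in ND13 cells, 2142, 2384 and 2748 in NA10 cells, 1990, 2982 and 2899 in ND13(N51S) cells, and 1707, 2142 and 2079 in GFP control cells. ND13 arrays all lay above the control, at 0.44 ± 0.19 (95% interval 0.04 to 0.85, limma's adjusted p = 0.804), and the lowest NA10 array lay above the highest control array by less than 1 unit, both at 2142. A second Nusap1 probe set was not above background in ND13 replicates 1 and 3 and gave 60.8 in ND13 replicate 2, against 86.9, 62.5 and 91.1 in GFP control cells.
Ect2, the exchange factor that activates RhoA for cytokinesis, differed by 0.41 (95% interval -0.08 to 0.89) with NA10, whose 3 arrays of 1000, 1059 and 1193 lay above the control arrays of 655, 951 and 870. Hmmr, a spindle protein that also binds hyaluronan, differed by 0.66 ± 0.30 with ND13(N51S) (95% interval 0.02 to 1.31, limma's adjusted p = 0.646). The 3 ND13(N51S) arrays were at 1655, 1820 and 2603, and the control arrays at 1103, 1027 and 1740. These ranges overlapped, and within each replicate number the ND13(N51S) array was the higher. In the fit blocked on replicate number, limma's adjusted p was 0.121. Without ND13(N51S) replicate 3 the difference was 0.47, and without GFP control replicate 2 it was 0.52, both under 1.5-fold. The other 3 Hmmr probe sets, above background in all arrays, gave 0.22, 0.24 and 0.34 for ND13(N51S) against the GFP control, each under 1.5-fold. In the last of these the order in replicate 2 was reversed, at 90.36 with ND13(N51S) and 97.35 in the control.
Prc1, which bundles the microtubules of the central spindle, differed by 0.50 with ND13(N51S) without overlap of the arrays (limma's adjusted p = 0.654). Its other probe set gave 0.13 for that comparison, with overlap. Among kinesins the median difference was 0.05 in ND13 cells, -0.01 in NA10 cells and -0.02 in ND13(N51S) cells, and 3 of 6 were higher by value with each fusion.

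**Figure D4:**
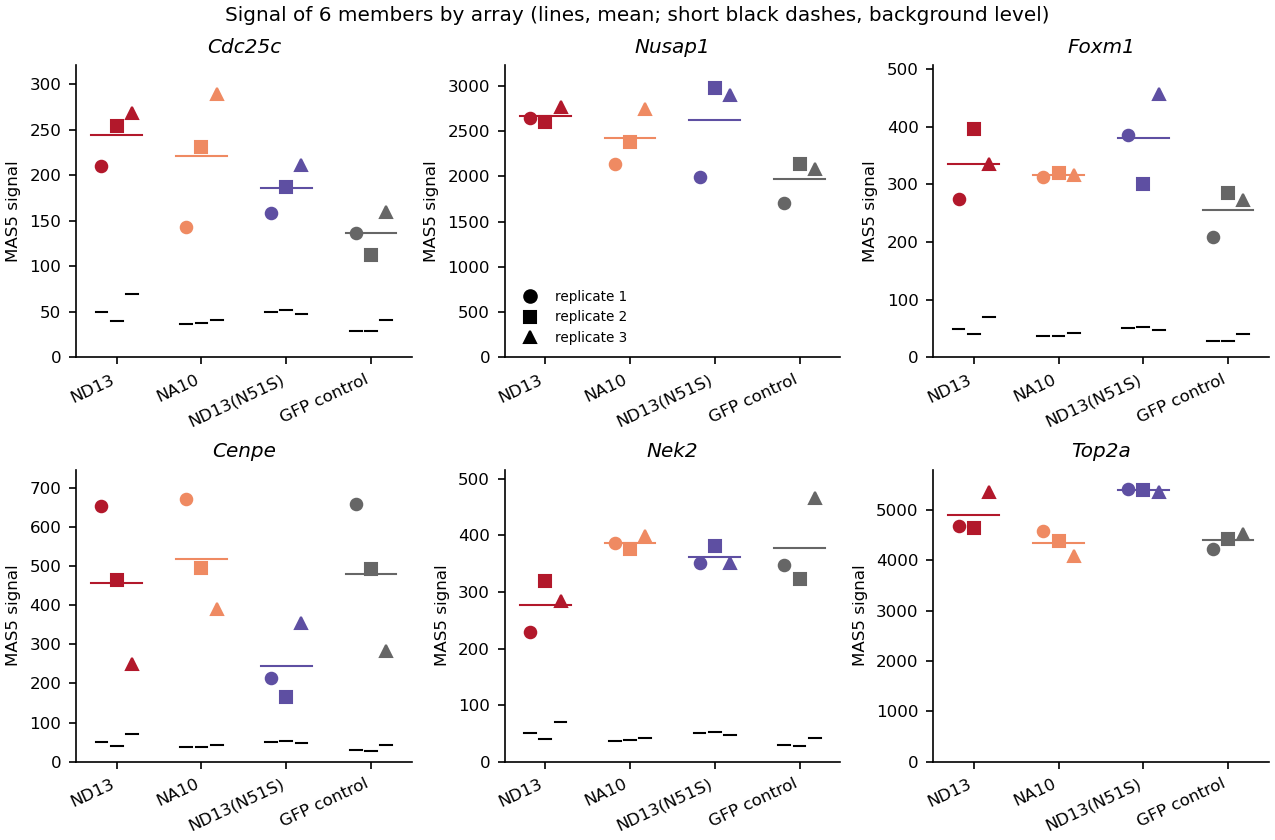
MAS5 signal of Cdc25c, Nusap1, Foxm1, Cenpe, Nek2 and Top2a in the 12 arrays, by group, with symbols for the replicate number, a line at each group mean, and a short black dash at the background of an array where a signal under 300 was present. ND13 arrays are the 3 lowest for Nek2 (230, 319 and 283), ND13(N51S) arrays the 3 highest for Top2a (5412, 5406 and 5367).

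Arrays of some members did not overlap between groups. For ND13 against the GFP control, 6 members lay above (14.0% of 43 at a background of 6.84%) and 2 below (background 5.37%). For NA10 6 lay above and 1 below (background 5.6% and 5.18%), and for ND13(N51S) 7 above and 0 below (background 8.5% and 3.45%). Against ND13(N51S), 0 lay above and 4 below with ND13 (background 4.28% and 8.04%), and 2 above and 3 below with NA10 (background 4.3% and 9.4%). Cenpf, Mki67 and Nusap1 lay above the control in both ND13 and NA10. Top2a, Smc4 and Mki67 did so in both ND13 and ND13(N51S), and Foxm1 and Mki67 in both NA10 and ND13(N51S). All 3 fusions share those control arrays.

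The other genes of the pathway gave no call either. Of 54 other mitotic genes measured, 29 were higher by value in ND13 cells, 33 in NA10 cells and 27 in ND13(N51S) cells, with medians of 0.01, 0.05 and 0.00 against the GFP control. For 13 genes of the APC/C, its activator Cdh1 among them, the medians were -0.09, 0.00 and -0.07, and for 9 genes of the DREAM and MuvB-Myb complexes 0.14, -0.03 and 0.04. The S phase genes, which include replication licensing factors and cyclin E, ran the other way. Of 28 measured, 21 were lower by value in ND13 cells, 21 in NA10 cells and 22 in ND13(N51S) cells, with medians of -0.15, -0.17 and -0.14. None of them passed limma's adjusted test. No test of the difference between the S phase and the mitotic lists was made. Summed signals of macrophage markers were 5961 to 8128 in ND13 arrays, 4471 to 4983 in NA10 arrays and 5295 to 10523 in ND13(N51S) arrays, against 2906 to 5856 in GFP control arrays, with 5 of 5 markers above background in all arrays. At limma's unadjusted p under 0.05 and 1.5-fold, 4, 3 and 3 of these 5 were higher (background 3.43%, 2.51% and 4.37%). None was called in the main fit. In the fit blocked on replicate number, 1 was called higher with ND13 (limma's adjusted p = 0.0427, background 0.296%). Megakaryocyte markers, 2 of 3 above background in all arrays, summed to 4888 to 5755, 5898 to 6268 and 4802 to 6988 in the same order, against 2570 to 4132. Mast cell markers, 4 of 5 above background in all arrays, summed to 2919 to 3581, 2833 to 4852 and 4628 to 7697, against 2224 to 3736. Erythroid markers, 2 of 4 above it, summed to 271 to 337, 192 to 390 and 444 to 477, against 266 to 390. Mast cell and erythroid sums were thus higher without overlap in ND13(N51S) arrays only, and megakaryocyte sums in arrays of each fusion. Single markers did not all follow these sums. In ND13(N51S) arrays, 3 of 5 mast cell markers and 0 of 4 erythroid markers lay above the control without overlap. Tpsb2, a mast cell marker above background in 6 arrays, was lower there by value. Of 3 megakaryocyte markers, 2 lay above the control without overlap in ND13 arrays, 2 in NA10 arrays and 1, Pf4, in ND13(N51S) arrays. B lineage markers, 1 of 3 above background in all arrays, summed to 173 to 193 in ND13 arrays, against 242 to 370 in GFP control arrays. Sums of macrophage markers in NA10 and ND13(N51S) arrays, and of granulocyte, fibroblast, T lineage and stem and progenitor markers, overlapped the control range. For macrophage markers this overlap came from GFP control replicate 1 alone, where Csf1r was at 3042 and Cd14 at 1813. The other control sums lay below those of every fusion array. Of 5 macrophage markers, 3 lay above the control without overlap in ND13 arrays, 2 in NA10 arrays and 2 in ND13(N51S) arrays (background 6.84%, 5.6% and 8.5%). The part of these cells in the mitotic signals was not tested.

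The replicate numbers in the labels separated some members that the groups did not. By an F-test in limma over the 4 groups, 0 of 43 members passed an adjusted p under 0.05, beside 0.0442% of all probe sets. Over the 3 replicate numbers 5 of 43 members (11.6%) passed, beside 5.22% of all probe sets and 9.54% of those above the median mean signal. The share of members is near the 9.54%, so the count is no result particular to them. Hmmr had signals of 2067, 2327, 2603 and 1740 in the replicate 3 arrays of ND13, NA10, ND13(N51S) and the GFP control, against 1341, 1415, 1655 and 1103 in replicate 1 and 1224, 1235, 1820 and 1027 in replicate 2. In each of the 4 groups replicate 3 was the highest. The log2 difference of replicate 3 was 0.66 ± 0.11 from replicate 1 (adjusted p = 0.00878) and 0.74 ± 0.11 from replicate 2 (adjusted p = 0.00423). All 4 Hmmr probe sets were higher in replicate 3.
Prc1 followed the same pattern, with 2696, 2569, 3012 and 1880 in replicate 3, against 1700, 1736, 2156 and 1488 in replicate 1 and 1939, 1884, 1902 and 1553 in replicate 2 (adjusted p of the F-test 0.0326). A second Prc1 probe set, above background in all arrays, did not follow it, with 997, 637, 849 and 603 in replicate 3, against 614, 722, 785 and 629 in replicate 1 (limma's adjusted p of the F-test 0.781). Kif22, Incenp and Cdc20 ran the opposite way. Kif22, a chromokinesin that pushes chromosome arms outward, had 2298, 2771, 2584 and 2540 in replicate 3, against 4513, 4670, 3568 and 6421 in replicate 1 and 4493, 5377, 4173 and 4104 in replicate 2. The difference from replicate 1 was -0.88 ± 0.15 (adjusted p = 0.00694).
The lower signal of Kif22 in replicate 3 was not shared by all of its probe sets. A second one gave 111, 219, 212 and 198 in replicate 3, against 206, 169, 193 and 174 in replicate 1. The remaining one gave 347, 366, 468 and 351, against 511, 542, 433 and 449, a difference of -0.34 that did not pass (limma's adjusted p = 0.531). For Incenp, the scaffold of the passenger complex, the probe set shown gave 2984, 3188, 3127 and 2599 in replicate 3, against 4112, 3975, 4388 and 4716 in replicate 1, and another gave 1012, 625, 696 and 820 against 698, 612, 789 and 776. Cdc20 gave 2745, 3529, 3629 and 3499 in replicate 3, against 4099, 4409, 4324 and 4608 in replicate 1 (adjusted p of the F-test 0.0288). A second Cdc20 probe set, above background in all arrays, differed by -0.20 between replicates 3 and 1 (limma's adjusted p = 0.530), and the remaining one was above background in 11 arrays and differed by 0.43.
The probe sets of Kif22, Incenp and Cdc20 used here all carry the suffix _x_at, which Affymetrix gives to probe sets that may hybridise to other transcripts, and 6 members do. Among probe sets above the median mean signal, 16.6% of 978 with that suffix differed by replicate number, against 8.87% of 10335 others, and their median difference of replicate 3 from replicate 1 was -0.18, against 0.02. The array's control probe set for the B1 repeat, a short interspersed element, moved alongside, at 1447, 1110, 1183 and 1081 in replicate 3 and 1562 to 2621 in the other 8 arrays. One control probe set for the B2 repeat gave 552 to 585 and 723 to 1196 in the same way, and a second one, at 14518 to 19515 and 14089 to 16833, did not. Their part in the members' signals was not tested.

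**Figure D5:**
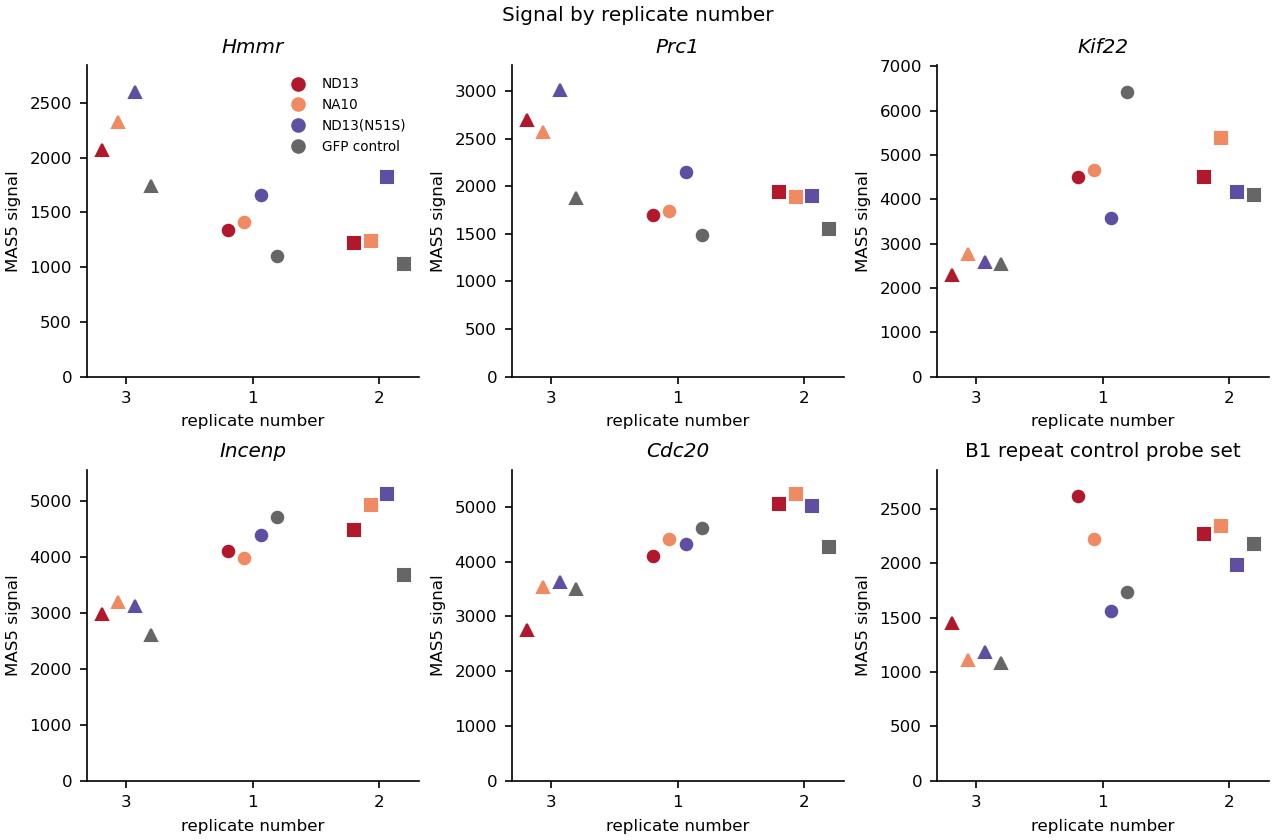
MAS5 signal by replicate number, with replicate 3 at the left, for the 5 members that differed by replicate number and for the control probe set of the B1 repeat; each point is 1 array, coloured by group. Hmmr and Prc1 are higher in replicate 3 than in the replicates 1 and 2 of each group, and Kif22, Incenp, Cdc20 and the B1 control are lower.

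Leaving out ND13(N51S) replicate 2 raised the count to 8 of 43 members, beside 10.2% of all probe sets, and Kif11, Plk1 and Ncaph passed in addition. Kif11, the kinesin that pushes the spindle poles apart, had 1355, 1515, 1684 and 1376 in replicate 3, against 1028, 986, 987 and 906 in replicate 1, and its 3 probe sets were all higher in replicate 3. Without NA10 replicate 3 the count was 0, and it was 1 without ND13 replicate 3 and 1 without GFP control replicate 3. Smc4 shows how far the choice of probe set matters, because the one used differed by 0.05 between replicates 3 and 1 and another by -1.10 (adjusted p = 0.00473).

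The array with the high Gapdh ratio stood apart at some members and not at others. In ND13(N51S) replicate 2, 6 of 43 members (14.0%) lay more than 1.5-fold below the lowest of the other 11 arrays, beside 7.75% of all probe sets and 11.6% of those above the median mean signal, and 0 lay 1.5-fold above the highest (background 1.96%). The 14.0% is near the 11.6%, so the count is no result particular to the members. Plk1 had a signal of 188 there and 970 to 2153 in the other arrays. Aurka, the kinase of centrosome maturation, had 398 there and 987 to 1901 in the others. Bub1b had 635, against 1674 to 2153, and Ube2c, the ubiquitin-conjugating enzyme of the APC/C, had 675, against 1562 to 2418. Kif20a had 461, against 793 to 1103, and Racgap1 had 299, against 484 to 670. These 6 genes fall into 5 of the 6 functional groups. In the same array 10 of 43 members were the lowest of the 12 (background 17%) and 13 the highest (background 17%), among them Bub1, Bub3, Mad2l1, Pttg1 and Smc4, and its median over the 43 genes lay 0.14 above their means over all arrays.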

How the data were processed

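The authors deposited MAS5 signal intensities on a linear scale for 22690 probe sets of 12 arrays, named as MAS5 in the submitters' processing notes with no version, and every array had been scaled to the same trimmed mean of 500.2. The GC-RMA values of the study were not used here. No CEL file was used. 64 control probe sets were left out of the tests. Signals were put on the log2 scale (floor 0.01, not reached), and all 4 groups were fitted in limma 3.58.1 (R 4.3.3; lmFit, eBayes with trend and robust) with Benjamini-Hochberg adjustment over 22626 probe sets, after the fit had been tested on simulated data. Probe sets with an adjusted p < 0.05 that also changed at least 1.5-fold were called. Unadjusted p-values come from the same fit. Probe sets were named through GEO's platform annotation, updated by gene number to RefSeq (GRCm38.p6), and 20380 carried 1 gene, 691 several and 1555 none. Levels were not compared between probe sets, and precision is limited by 3 arrays a group.

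The 45 members, the other gene lists and the tests were chosen with earlier results of these data known. Members past 1.5-fold at an unadjusted p < 0.05 were named, together with examples of each functional group, several chosen after their values were seen. Promoters were shown for the 6 members with a CHR motif and the smallest F-test p. Replicate numbers in the labels pair the arrays: over the 11313 probe sets above the median mean signal, deviations from the group mean correlated at 0.106 to 0.596 between arrays of the same number and at -0.422 to 0.107 between others. The replicate block changed no call of a member. As alternatives, dim probe sets were left out, and the analysis was repeated with a pseudocount of 32, quantile normalization, median centring, plain eBayes, fits of 2 groups, the methods' t-test, averaging the probe sets of a gene, array weights, the block, and without each array in turn. Probe sets with a plain suffix only, the block without ND13(N51S) replicate 2, and the contrasts between replicate numbers were added after the data were seen.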

Additional observations from a re-analysis of the deposited data

How the results depend on the processing

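No member was called in any of the 6 comparisons, or over the 4 groups, under any alternative or with any array left out. Leaving out ND13(N51S) replicate 2 with GFP control replicate 1 gave the median of ND13 against the GFP control as 0.048. Centring arrays on their median gave 0.020 there, -0.0078 for ND13(N51S) against the GFP control, 0.022 for NA10 against ND13(N51S) and -0.028 for ND13 against NA10. The median of all probe sets for ND13(N51S) against the GFP control was then -0.04, against 0.07 without centring. Averaging the probe sets of a gene gave 0.042 in ND13 and 0.044 in ND13(N51S) cells against the GFP control and 0.0080 for ND13 against ND13(N51S), and the plain suffix gave -0.011 for the last. With 1 array left out, the medians ranged from 0.047 to 0.113 (ND13), 0.065 to 0.115 (NA10) and 0.102 to 0.160 (ND13(N51S)) against the GFP control, -0.074 to -0.016 (ND13) and -0.061 to -0.014 (NA10) against ND13(N51S), and -0.047 to 0.049 for ND13 against NA10.

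Members past 1.5-fold at an unadjusted p < 0.05 in the main fit numbered 1 in ND13, 1 in NA10 and 2 in ND13(N51S) cells, each against the GFP control, 0 and 1 for ND13 and NA10 against ND13(N51S), and 0 for ND13 against NA10. Averaging probe sets gave 2 for ND13 against the GFP control, 1 for ND13 against ND13(N51S) and 1 for ND13 against NA10. For NA10 against the GFP control the count was 0 with the pseudocount, quantile normalization, centring, 2 groups only, the t-test, and without the 2 arrays named above. For ND13(N51S) against the GFP control it was 0 with plain eBayes and with the t-test, 4 with array weights, and 1 without those 2 arrays. For ND13 against ND13(N51S) it was 1 with centring and 1 with the replicate block. For NA10 against ND13(N51S) it was 2 with centring, 0 with the t-test, and 2 with the replicate block, also without ND13(N51S) replicate 2. With 1 array left out the counts ranged from 1 to 1, 0 to 1, 0 to 4, 0 to 1, 0 to 2 and 0 to 1 in the order given. The 4 came without ND13(N51S) replicate 2 and without GFP control replicate 3.

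The 5 members that differed by replicate number became 0 with plain eBayes, 1 with averaged probe sets, 1 with the plain suffix, 8 in the block without ND13(N51S) replicate 2, and 0 to 8 with 1 array left out. Except where the alternative itself removed arrays or probe sets, the cause was not tested. With 3 arrays per group the median SE was 0.21 log2 units per gene. Changes under 1.5-fold could not be called by the rule. Larger differences did not pass either, such as Cdc25c at 0.85 with ND13 against the GFP control (limma's adjusted p = 0.648).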
